A study of Mus musculus with 24 samples.

Results

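Of 132912 ATAC-seq peaks in the first control library of degron-tagged mouse embryonic stem cells, 1500 were found in both control libraries and in none of the 6 libraries taken after CTCF was degraded. These 1500 regions were chosen by the peak calls themselves: the peak had to overlap a peak of the other control library by at least 1 bp, and had to overlap none after 12 h of the auxin IAA, whether the line carried only a control construct (Ctrl_IAA), overexpressed wild-type CTCF (oeCTCFwt_IAA) or overexpressed mutated CTCF (oeCTCFmut_IAA). They were thus 1.34% of the 111731 control peaks found in both control libraries, and part of the 9843 such peaks that were absent from both Ctrl_IAA lists, which is 8.81% of the peaks tested. All 24 libraries came from E14, an established mouse embryonic stem cell line, in which CTCF carries the AID degron, so that the protein is degraded once IAA is present. The control line without IAA (Ctrl), Ctrl_IAA, oeCTCFwt_IAA and oeCTCFmut_IAA each had 2 libraries. The other 16 libraries played no part in the choice. They were 2 without IAA and 2 after 12 h of IAA from cells labelled as grown in serum, and 12 without IAA from cells with a hairpin named shluci or with 1 of 2 hairpins (shRNA1, shRNA2) in a Chd4 set and a Chd8 set. The labels did not say which mutation the mutated CTCF carried, whether a line was 1 clone, or whether replicates were separate cultures, so the spread between replicates may be technical. "Restored" is used here only for a peak that is listed again, and a peak missing from a list lay below that list's limit, which is not the same as closed chromatin.

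CTCF is a zinc-finger protein that binds a long, well-defined DNA sequence, blocks the movement of cohesin along DNA and thereby shapes chromatin loops and domain borders. Its binding displaces nucleosomes, so that an occupied site appears in ATAC-seq, which marks DNA that a transposase can reach, as a narrow peak over the site. When CTCF is removed such a peak can be lost, and supplying CTCF again can bring it back.

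The sequences of 11 of the regions are shown first, because several of the results below are split by the match to the CTCF consensus. The consensus is 14 bp long, was searched on both strands within 250 bp of the summit, and counted as present with at most 1 mismatch. Each line below is read along the strand of the match, with the best match in capitals and 25 bp of the GRCm38 (mm10) RefSeq reference on each side. The first 4 are among the regions with the consensus that ranked highest in both control lists.
Intergenic, near Tcea2, chr2:181678964-181679027, minus strand: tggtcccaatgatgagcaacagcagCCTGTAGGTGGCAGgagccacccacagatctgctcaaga
Intron near 1700061G19Rik, chr17:56897787-56897850, plus strand: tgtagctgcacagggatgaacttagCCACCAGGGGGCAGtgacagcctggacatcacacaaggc
Intron, nearest protein-coding start Fam171b, chr2:83771563-83771626, minus strand: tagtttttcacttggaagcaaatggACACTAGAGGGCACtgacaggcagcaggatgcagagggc
Intergenic, near Ccng1, chr11:40763566-40763629, minus strand: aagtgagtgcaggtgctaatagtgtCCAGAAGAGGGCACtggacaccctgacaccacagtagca
The next 5 had a peak in both serum libraries without IAA and in neither serum library after 12 h of IAA.
Intron near Dhx32, chr7:133805784-133805847, plus strand: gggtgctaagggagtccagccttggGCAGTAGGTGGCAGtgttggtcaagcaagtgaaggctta
Intergenic, near Ilk, chr7:105726534-105726597, plus strand: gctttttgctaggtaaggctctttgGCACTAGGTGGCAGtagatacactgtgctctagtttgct
Intron near Tamm41, chr6:115007936-115007999, minus strand: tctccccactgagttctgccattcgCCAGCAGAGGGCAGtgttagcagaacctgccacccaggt
Coding exon, nearest protein-coding start Rasal2, chr1:157286782-157286845, minus strand: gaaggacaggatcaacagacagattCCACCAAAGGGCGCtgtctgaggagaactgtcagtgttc
Intron near Ttc25, chr11:100555724-100555787, minus strand: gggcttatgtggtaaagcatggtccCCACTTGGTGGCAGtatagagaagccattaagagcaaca
The last 2 ranked highest among the regions without the consensus and had no match closer than 2 mismatches.
Intergenic, nearest protein-coding start Camk1g, chr1:193599349-193599412, plus strand: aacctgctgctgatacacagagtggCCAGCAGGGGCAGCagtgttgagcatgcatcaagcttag
Intergenic, near Prpf3, chr3:95862007-95862070, plus strand: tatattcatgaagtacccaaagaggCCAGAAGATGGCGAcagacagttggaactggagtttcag
Of these 11, the 1700061G19Rik and Tamm41 regions held a match with no mismatch. The 7 other regions with the consensus had 1 mismatch each.

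Libraries differed in ways the groups do not explain. The 8 lists used by the choice held 120137 to 155087 peaks, and the longest was oeCTCFwt_IAA replicate 1. The highest peak of the first control list, on chromosome 1, was listed in 5 of these 8 libraries and missing from Ctrl_IAA replicate 1, oeCTCFwt_IAA replicate 2 and oeCTCFmut_IAA replicate 2. With those 3 lists set aside, 2938 regions met the rule and 20.2% of them held the consensus. Promoter peaks were listed in 8 of 8 libraries for Sox2, Nanog, Klf4, Esrrb and Zfp42, genes of the embryonic stem cell state, and in 4 of 8 for Pou5f1. Promoters of the lineage genes Gata6, T, Pax6 and Cdx2 also had a peak in 8 of 8, and that of Sox17 in 7 of 8, so open promoters alone did not mark the cell type.

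The CTCF consensus was present in 352 of the 1500 regions, or 23.5% (95% Wilson interval 21.4 to 25.7%). Over all 111731 reproducible control peaks it was present in 6.79%, and in windows of the same length tiled over the genome in 1.22%. The share was thus several times that of an ordinary open region, but lower than the 42.0% (39.8 to 44.3%) of the 1862 peaks that were absent from both Ctrl_IAA lists and present in all 4 lists of the overexpressing lines. Peaks restored by the wild-type line only had the consensus in 33.1% of 629 (29.5 to 36.8%), and those restored by the mutated line only in 21.8% of 238 (17.1 to 27.5%), an interval that contains the value of the regions restored by neither. The 5614 peaks absent from both Ctrl_IAA lists that fit none of these 4 patterns, being listed in only 1 library of at least 1 of the lines, had it in 26.5%. Peaks retained in both Ctrl_IAA lists had it in 4.15% of 89623. These intervals cover counting error only, and regions of the same libraries are not replicates.

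The same rule can be turned around to ask how often a group has peaks of its own. Peaks found in both libraries of 1 group and in none of the other 6 lists numbered 1500 for Ctrl, 568 for Ctrl_IAA, 1114 for oeCTCFwt_IAA and 1345 for oeCTCFmut_IAA, or 1.34%, 0.568%, 0.939% and 1.18% of each group's reproducible peaks. The number of regions restored by neither line was therefore close to the number of peaks private to the mutated line. Their share with the consensus was not. The consensus was present in 6 of the 568 peaks private to Ctrl_IAA (1.06%, 0.485 to 2.29%), in 41 of the 1114 private to oeCTCFwt_IAA (3.68%, 2.72 to 4.95%) and in 24 of the 1345 private to oeCTCFmut_IAA (1.78%, 1.20 to 2.64%). Over all reproducible peaks of these groups the share was 3.36%, 5.32% and 4.90%, also below the 6.79% of Ctrl. Their private peaks were weaker, with a median −log10 p of 4.85, 6.34 and 5.91 against 7.23, and the shares were not matched for strength.

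**Figure D1:**
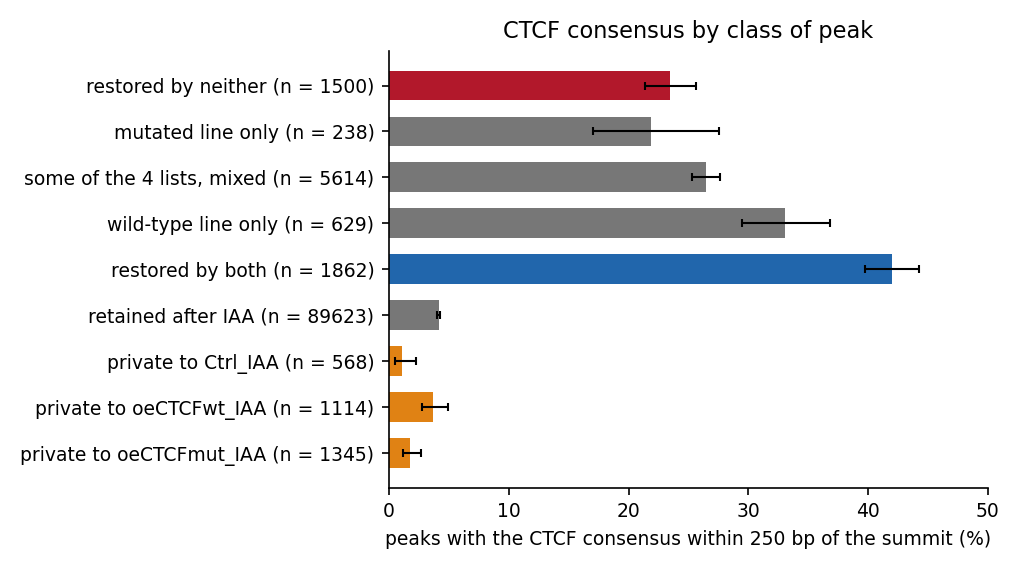
Share of peaks with the CTCF consensus within 250 bp of the summit (x axis, percent) for the classes of control peaks and for peaks private to each of the 3 IAA groups, with 95% Wilson intervals as error bars. The regions restored by neither line stand at 23.5%, between the retained peaks at 4.15% and the peaks restored by both lines at 42.0%, and the peaks private to an IAA group lie at 1.06 to 3.68%.

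With fewer or more mismatches allowed, the regions again lay between all reproducible peaks and the peaks restored by both lines. A match with no mismatch was found in 86 regions (5.73%, against 1.75% of reproducible peaks and 14.2% of those restored by both lines). A match with at most 2 mismatches was found in 48.1%, against 23.9% and 62.8%. The best match had 1 mismatch in 266 regions and 2 in 369, and 779 (51.9%) had no match closer than 3.

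The matched sites themselves differed between classes. Of the 352 sites, 24.4% had no mismatch, against 33.9% of the sites in peaks restored by both lines and 20.3% in retained peaks. A CpG, the dinucleotide at which mammalian DNA is methylated, lay within 24.4% of the sites, against 35.8% in peaks restored by both lines, 25% in peaks restored by the wild-type line only and 47.3% in retained peaks. Among the 266 sites with 1 mismatch, counted from the 5′ end of the consensus, position 5 was the mismatched one most often (50 sites), followed by position 1 (47 sites) and position 12 (45 sites). Positions 2, 4 and 13 were each mismatched once. In peaks restored by both lines position 5 was also the most frequent (121 of 517 sites). In retained peaks it was position 3 (546 of 2962 sites), with position 5 at 11.5%. The site lay close to the summit: the median distance was 35.5 bp in both classes, and the centre of the site was within 50 bp of the summit for 258 of 352 sites (73.3%), against 78% for peaks restored by both lines and 49.1% for retained peaks. The 2 strands were used about equally, with 175 of 352 sites on the plus strand. Repeats, as soft-masked in the reference, covered 48 of the sites (13.6%), against 10.2% of sites in peaks restored by both lines.

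The regions were small peaks. Because the choice rests on these calls, their strength is given as a description. The fold over local background, as the authors' peak caller reported it, had a median of 3.78 in control replicate 1 and 3.91 in control replicate 2. For peaks restored by both lines the medians were 6.06 and 6.28, and for retained peaks 7.29 and 7.78. The number of reads stacked at the summit, recovered from the fold and the −log10 p, ranged from 9 to 99 with a median of 17 in replicate 1, and from 8 to 98 with a median of 16 in replicate 2. The lowest number of reads at any listed summit in the 8 libraries was 8 or 9, so a typical region stood about 2-fold above the smallest pile that could be listed. Peaks restored by both lines had medians of 28 and 27 reads, and retained peaks of 41 and 40. At least 20 reads in both control libraries were present in 451 regions (30.1%), at least 30 in 145 and at least 40 in 45. Their median width was 211 bp, against 326.5 bp for peaks restored by both lines and 499 bp for retained peaks.

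Regions with the consensus were the stronger ones. Their median fold was 4.86 with 22 reads at the summit in replicate 1, against 3.61 and 16 reads for those without it. At least 20 reads in both control libraries were present in 171 of the 352 with the consensus (48.6%) and in 280 of the 1148 without it (24.4%).

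**Figure D2:**
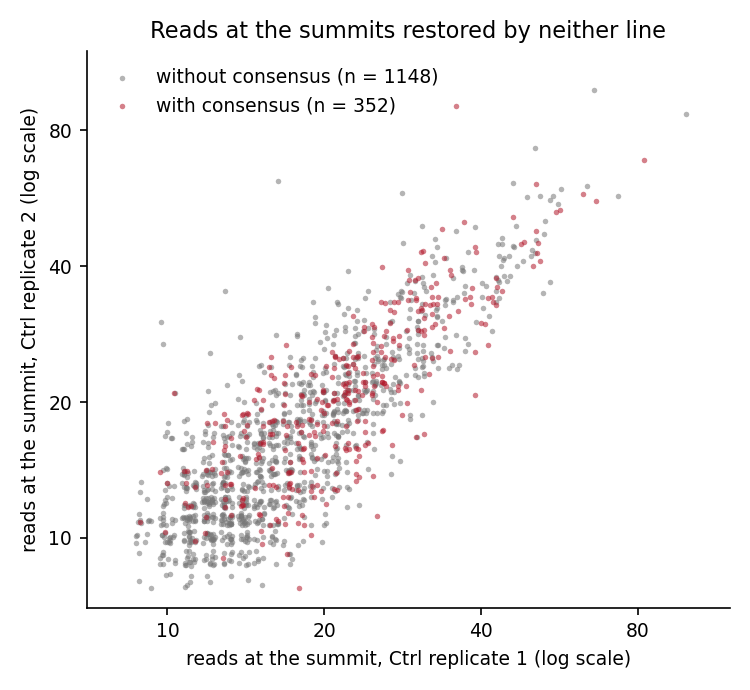
Reads at the summit of each of the 1500 regions in control replicate 1 (x axis) and of its best overlapping peak in control replicate 2 (y axis), both on log scales, with points shifted by less than 0.5 read so that they do not hide each other. Most regions lie near the lower corner, with medians of 17 and 16 reads, and those with the consensus (red) lie higher, with a median of 22 reads in replicate 1.

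At matched strength the regions held the consensus as often as peaks restored by both lines, or more often, up to the middle of the list. Strength was the percentile of a peak's −log10 p in the first control list. In the weakest bin, percentiles 0 to 20 of that list, the consensus was present in 9.77% of the 747 regions (7.84 to 12.1%) and in 3.26% of the 215 peaks restored by both lines (1.59 to 6.57%). Between percentiles 20 and 40 it was present in 28.6% of 465 regions against 22.4%, and between 40 and 60 in 52.0% of 250 regions against 46.2%, with overlapping intervals in both bins. Between 60 and 80, where only 38 regions remained, it was present in 16 (42.1%, 27.9 to 57.8%) against 64.4% (60.3 to 68.3%). Above percentile 80 there was no region restored by neither line, while 111 peaks restored by both were there. Retained peaks held it in 1.84 to 5.29% of cases over the 5 bins. Read the other way, regions restored by neither line made up 25.2% of the peaks absent from Ctrl_IAA in the weakest bin, 15.1% and 10.5% in the next 2 bins, and 3.00% between percentiles 60 and 80.

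**Figure D3:**
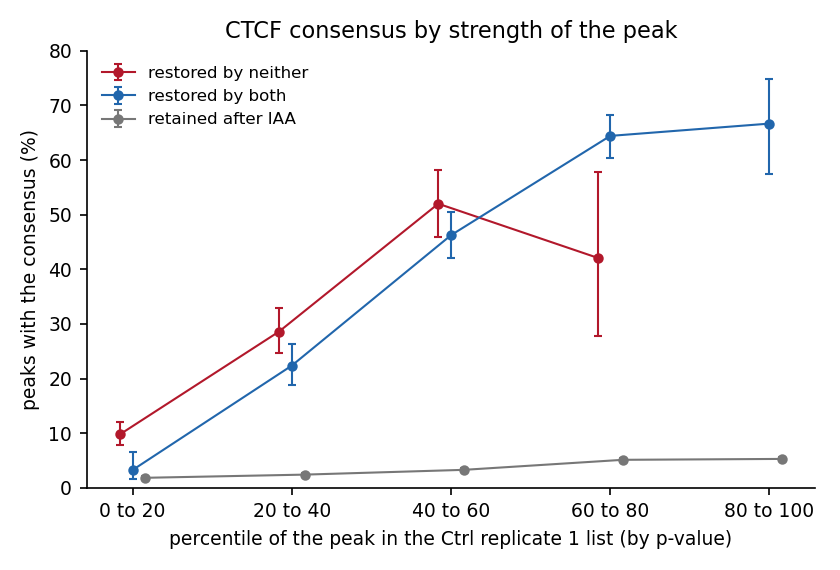
Share of peaks with the CTCF consensus (y axis, percent, with 95% Wilson intervals) by the percentile of the peak in the first control list (x axis, weakest to the left). The regions restored by neither line (red) go from 9.77% to 52.0% over the first 3 bins beside the peaks restored by both lines (blue), have 38 members in the next bin and none in the last, while retained peaks (grey) stay at 1.84 to 5.29%.

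The edge of the rule was examined in 2 ways. A peak in any of the 6 IAA lists lay within 10 bp of 8 regions and within 11 to 100 bp of another 54, while 463 had their nearest such peak between 100 and 1000 bp away, 798 up to 10000 bp away and 177 farther still. On the other side, 23 reproducible control peaks were kept out of the class by overlaps of 10 bp or less. Control peaks that overlapped exactly 1 of the 6 lists numbered 2531, and which list it was went with the sequence. The consensus was present in 28.9% of the 1070 peaks listed again only in oeCTCFwt_IAA replicate 1 and in 28.6% of the 384 only in replicate 2, in 17.4% of 380 and 19.5% of 297 for the 2 oeCTCFmut_IAA lists, and in 4.46% of 202 and 3.03% of 198 for the 2 Ctrl_IAA lists. The weakest regions just inside the class were a coding-exon peak at Cln8, a gene for a membrane protein of the endoplasmic reticulum, with 20 and 10 reads at the summit in the 2 control libraries, and an intron peak at Gins2, a subunit of the replicative helicase complex, with 10 and 14 reads. The control libraries themselves set the size of the class most: with only control replicate 2 as the starting list 7821 peaks met the rule, and with only replicate 1 there were 6543, with the consensus in 11.9% and 13.0%. Without oeCTCFwt_IAA replicate 1 there were 2570 regions.

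The serum libraries allowed the response to CTCF degradation to be read in cells that had no part in the choice. A peak over the regions was listed in 22.5% and 16.5% of the 1500 in the 2 libraries without IAA, and in 7.2% and 10.6% after 12 h of IAA. Both treated libraries lay below both untreated ones. The means were 19.5% ± 4.24 and 8.9% ± 2.40 (SD, n = 2 each), a difference of −10.6 percentage points (exact permutation test over libraries, two-sided, p = 0.333, which is the smallest p that 2 against 2 can give, and 0.525 after Benjamini-Hochberg adjustment over 9 tests). The weakest regions did not show this fall. For the 747 regions in percentiles 0 to 20 of control replicate 1, the mean share was 10.37% without IAA and 10.98% after it. It went from 24.19% to 8.49% in percentiles 20 to 40, from 34.2% to 3.8% in 40 to 60, and from 43.42% to 6.58% in 60 to 80. Over the same libraries the shares of retained peaks were 49.3% and 57.4%, and those of all reproducible peaks 44.4% and 49.6%, both higher after IAA. The treated lists were also the longer ones, with 71773 and 82502 peaks against 69153 and 59786. With every list cut to the shortest of its set the difference for the regions was −15.9 percentage points.

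The difference was larger in the regions that held the consensus, though the gap between the 2 kinds of region was not itself tested. The 2 kinds were not compared at like strength, and those with the consensus had a median percentile of 36.8 in control replicate 1 against 16.2. Of the 352 with the consensus, 39.8% and 31.8% had a peak without IAA, and 3.13% and 3.69% had one after IAA, a difference of means of −32.4 percentage points (exact permutation p = 0.333, again the smallest possible). Every untreated value lay far above both treated ones. Of the 1148 regions without the consensus, 17.2% and 11.8% had a peak without IAA and 8.45% and 12.7% after it, so that the libraries overlapped (difference −3.88 percentage points, exact permutation p = 0.667). That difference ran from −6.58 without the second untreated library to −1.18 without the first.

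The number of mismatches gave the same picture in finer steps, with strength moving along with it. The median percentile in control replicate 1 was 35.8 with no mismatch, 36.8 with 1, 26.1 with 2 and 13.4 with 3 or more. The steps were not compared at like strength. Regions whose best match had no mismatch were listed in 40.7% and 29.1% without IAA and in 1.16% and 5.81% after it. With 2 mismatches, which the definition above counts as lacking the consensus, 26.3% and 18.4% were listed without IAA and 4.07% and 6.23% after it. The 779 regions with no match closer than 3 mismatches were listed in 12.8% and 8.60% without IAA and in 10.5% and 15.8% after it. The difference for regions without the consensus therefore changed sign, to 2.44 percentage points, when up to 2 mismatches were allowed.

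**Figure D4:**
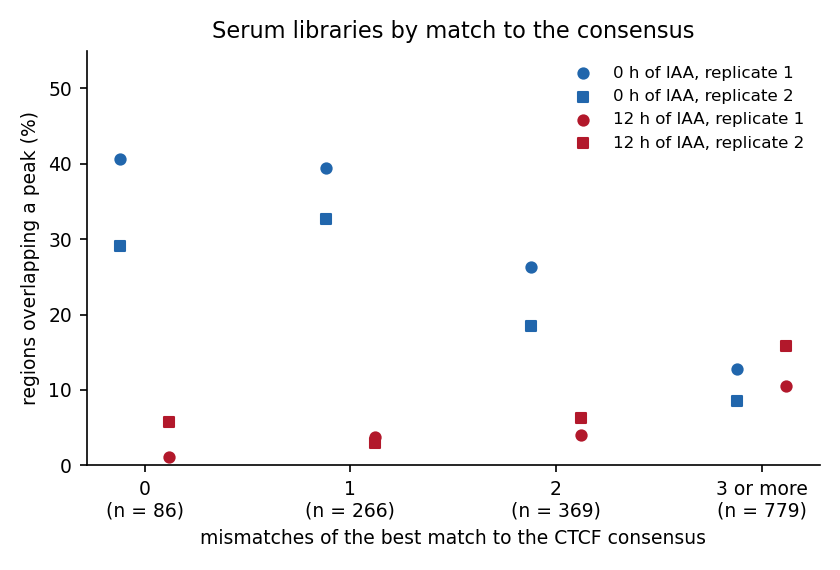
Share of the 1500 regions that overlap a peak in each serum library (y axis, percent) by the number of mismatches in the best match to the CTCF consensus (x axis). Untreated libraries (blue) lie at 18.4 to 40.7% and treated ones (red) at 1.16 to 6.23% for up to 2 mismatches, and the 4 libraries lie at 8.60 to 15.8% with 3 or more.

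Counted region by region, 153 of the 1500 had a peak in both untreated serum libraries, and 104 of these had none in either treated library, or 68.0% (60.2 to 74.8%). The same loss was seen in 6.06% of the 41227 reproducible peaks listed in both untreated serum libraries, and in 2.05% of retained peaks. With the consensus the count was 62 of 74 (83.8%, 73.8 to 90.5%) and without it 42 of 79 (53.2%, 42.3 to 63.8%). Peaks restored by both lines were lost in 66.7% of 730 and those restored by the wild-type line only in 77.7% of 121. Of those restored by the mutated line only, 59.3% of 27 were lost, and of the other peaks absent from Ctrl_IAA 65.8% of 958, so the share of the regions restored by neither line lay among these. The comparison with peaks restored by both lines differed between bins of strength. Between percentiles 20 and 40 the counts were 46 of 61 (75.4%, 63.3 to 84.5%) against 39.0% (28.8 to 50.1%), and between 40 and 60 they were 44 of 51 (86.3%, 74.3 to 93.2%) against 66.3% (59.7 to 72.4%). In the bins on either side the order was the other, on few regions and with overlapping intervals: 7 of 31 were lost in the weakest bin (22.6%) against 28.6%, and 7 of 10 between percentiles 60 and 80 (70%) against 73.3%. A larger number, 982 regions (65.5%), had no peak in any of the 4 serum libraries, against 34.6% of peaks restored by both lines and 31.3% of retained peaks. A peak in all 4 was found for 30 regions (2%), against 4.99% and 38.9%.

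Several of the strongest regions with the consensus are described one by one, each by the nearest annotated protein-coding start. The region 1292 bp from a start of Tcea2, which encodes a transcription elongation factor, had 48 and 45 reads at the summit in the 2 control libraries and was missing from all 4 serum libraries. The intron region near 1700061G19Rik had 57 and 53 reads, an exact match and no serum peak. It was listed in 2 of 2 shluci and 1 of 4 hairpin libraries of the Chd4 set, and in 1 of 2 and 3 of 4 of the Chd8 set. The region 41077 bp from a start of Fam171b had the highest fold in control replicate 2 of these, 12.9 with 42 reads, and a peak in 1 untreated serum library. It was listed in 2 of 2 shluci and 2 of 4 hairpin libraries of the Chd4 set, and in 2 of 2 and 4 of 4 of the Chd8 set. These 3 peaks were well above the list limit in both control libraries, and none had a peak in a treated serum library.

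Other regions with the consensus were listed in both untreated serum libraries. Among them were Dhx32 and Ilk of the 10 highest and 4 that were picked for their serum pattern. The intron region near Dhx32, an RNA helicase gene, had 32 and 33 reads, and was listed in both untreated serum libraries, in neither treated one, in both shluci libraries of the Chd4 and of the Chd8 set, and in 0 of 4 Chd4 and 2 of 4 Chd8 hairpin libraries. The region 9992 bp from a start of Ilk, the integrin-linked kinase, had 30 and 29 reads and the same serum pattern. It was listed in 0 of 2 shluci and 3 of 4 hairpin libraries of the Chd4 set, and in 1 of 2 shluci and 4 of 4 hairpin libraries of the Chd8 set. The region near Tamm41, a gene for an enzyme of mitochondrial cardiolipin synthesis, had 37 and 34 reads and an exact match. The coding-exon region with Rasal2, a Ras GTPase-activating protein, as the nearest protein-coding start had 30 and 24 reads. The region near Ttc25, a gene of motile cilia, had 38 and 34. The region near Cldn20, a claudin of tight junctions, had 38 and 36. These last 4 shared the serum pattern by which they were picked, and in each the site lay 30.5 to 44.5 bp from the summit. Other regions of the 10 highest lay near Ccng1, encoding cyclin G1, with 32 and 33 reads, near Eef1g, a translation elongation factor subunit, with 51 and 61, 85277 bp from the nearest protein-coding start, that of Ttc29, with 39 and 44, and near Paip2, a repressor of translation, with 35 and 26. None of these 4 had a serum peak.

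Among the strongest regions without the consensus, the intergenic one whose nearest protein-coding start, that of Camk1g, lay 229068 bp away had 36 and 34 reads, the one near Prpf3, a splicing factor gene, had 51 and 43, and the exon region near Plcg1, a phospholipase gene, had 52 and 57. The Plcg1 region was listed in both untreated and neither treated serum library although its best match had 3 mismatches. The intron region 981 bp from a start of Tle1, a transcriptional corepressor, had the most reads of all 1500 in control replicate 1, 99, and 87 in replicate 2, over a high local background, so that its folds were only 3.53 and 3.63. It was listed in 2 untreated and 1 treated serum library.

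Promoters were rare. The summit lay within 500 bp of an annotated transcription start in 48 regions (3.2%), against 15.2% of reproducible control peaks, 17.9% of retained peaks and 3.11% of peaks restored by both lines. The strongest promoter region, 32 bp from a start of Morc1, which silences transposons in male germ cells, had 57 and 59 reads and no serum peak. The next, at Gm9837, held an exact match 32.5 bp from the summit, with 30 and 37 reads, and was listed in 2 untreated and 1 treated serum library. Those at Unc45a, a myosin chaperone, with 30 and 29 reads, and at Npepps, an aminopeptidase, with 29 and 32 reads, had no serum peak. The promoter regions at Hhip, which binds Hedgehog ligands, and at Insc, an adaptor in spindle orientation, were listed in 1 untreated and 2 treated serum libraries each. Asph and Ago2, the latter the slicing Argonaute protein, completed the group of 8 with 15 and 16 and with 44 and 41 reads, and had no peak in any of the 16 other libraries.

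Most regions lay in introns (779, 51.9%) or between genes (557, 37.1%), and 68 (4.53%) in coding exons, against 44.6%, 34.1% and 3.17% of reproducible peaks. The median distance to a transcription start was 11931 bp, against 10417 bp. The median GC content within 250 bp of the summit was 48.0%, against 49.7%, and the median ratio of observed to expected CpG was 0.201, against 0.249. Short motifs were counted in the same windows on both strands, each as a description of letters. The GC box GGGCGG was in 11.1% of the regions against 25.1% of reproducible peaks and 12.7% of peaks restored by both lines. The motif of NRF1, a factor of CpG-rich promoters, was in 3 regions (0.2%) against 1.81%. The remaining 5 lay closer to the reproducible peaks: the AP-1 motif TGANTCA was in 14.3% against 15.1%, the E-box CACGTG in 7.53% against 9.50%, CCAAT in 46.1% against 48.1%, the octamer ATGCNAAT in 6.73% against 8.53%, and AAGGTCA, bound by nuclear receptors, in 12.9% against 14.5%.

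The regions were spread over the genome. Chromosome 6 held 136, or 1.95% of its reproducible peaks, and chromosome 8 held 107, or 1.77%, while the lowest share among autosomes was 0.972% on chromosome 17. Another region lay within 10 kb of only 38 of them, and the median distance between neighbours was 354428 bp. A retained peak lay within 1 kb of 204 regions (13.6%).

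Few regions lay within 50 kb of the genes listed for this purpose, and the counts are read against the 1.34% of all reproducible peaks. Of 339 reproducible peaks near 20 genes of naive pluripotency, 4 were in the class, at Pou5f1, Klf2, Zfp42 and Utf1, and none of the 4 held the consensus. The primed and lineage genes had 3 of 209, near Pou3f1, Eomes and Elf5. The genes of CTCF and cohesin, the ring complex that extrudes loops, had 1 of 137, near Ctcf itself at chr8:105598888-105599094, with folds of 2.56 and 2.79 and a best match of 3 mismatches. Imprinted genes had 1 of 208, near Plagl1, a growth-restraining zinc-finger gene, which held the consensus with 1 mismatch at folds of 3.19 and 3.87. The clustered protocadherins, neuronal adhesion genes whose promoters CTCF is known to bind, had 2 of 85. Neither held the consensus, with best matches of 3 and 4 mismatches. The Hox clusters had 2 of 111, both near Hoxa genes: an intergenic one 9819 bp from a start of Hoxa13, and another within the cluster. The latter, at chr6:52197407-52197553, 5732 bp from a start of Hoxa4, was among the strongest of all 1500, with folds of 8.38 and 11.4 and a best match of 2 mismatches, and it had a peak in all 4 serum libraries.

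Chd4, the ATPase of the NuRD remodelling complex, and Chd8, a remodeller that is known to bind CTCF, were targeted in cells without IAA, so degradation of CTCF had not been induced. Peak lists do not show how far either protein was reduced. In the Chd4 set the regions were listed in 19.7% and 10.5% of cases with shluci, in 15.6% and 9.4% with shRNA1, and in 15.1% and 8.73% with shRNA2. Replicate 1 was the higher in each group, and its lists were also the longer ones, at 135583 to 141742 peaks against 80619 to 93091. Among the replicate 1 libraries, and again among the replicate 2 libraries, both hairpins lay below shluci, while over both together the groups overlapped. The mean difference between hairpin and shluci libraries was −2.9 percentage points (exact permutation, two-sided, 2 against 4 libraries, p = 0.467, smallest possible 0.0667). It became 1.73 without the first shluci library, when the only shluci library left was one of the short lists, and −7.53 without the second. The difference was −5.40 for regions with the consensus (exact permutation p = 0.4) and −2.13 for those without it (exact permutation p = 0.467). Peaks in general had lower shares too: all reproducible peaks were listed in 50.2% of cases with shluci and 38.2% with the hairpins on average, with all 4 hairpin libraries below both shluci libraries (exact permutation p = 0.0667). The hairpin mean was 0.808 times the shluci mean for the regions and 0.761 times for reproducible peaks, so the regions were not further below shluci than peaks in general, a difference that was not itself tested. Of 92 regions listed in both shluci libraries, 32 were in none of the 4 hairpin libraries (34.8%, 25.8 to 44.9%), against 9.52% of the reproducible peaks so tested and 12.0% of the peaks restored by both lines. The count was 8 of 35 with the consensus (22.9%, 12.1 to 39.0%) and 24 of 57 without it (42.1%, 30.2 to 55%). In bins of like strength, the share was 43.5% against 23.8% of reproducible peaks in the weakest bin, 35.5% against 18% in the next and 25.8% against 15.5% in the third, on 23, 31 and 31 regions.

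In the Chd8 set the regions were listed in 21.8% and 26.3% of cases with shluci, in 23.4% and 19.7% with shRNA1, and in 20.2% and 17.8% with shRNA2. The mean difference was −3.77 percentage points, with 1 hairpin library inside the shluci range (exact permutation p = 0.267). It was −1.53 without the second shluci library and −6 without the first, and −0.733 when 50% of the peak had to overlap. Reproducible peaks were listed in 60.7% with shluci and 59.1% with the hairpins on average (exact permutation p = 0.733). For the 352 regions with the consensus the means were 40.6% with shluci and 33.0% with the hairpins, and all 4 hairpin libraries lay below both shluci libraries (difference −7.60 percentage points, exact permutation p = 0.133, 0.525 after adjustment over the 9 tests). For those without it the difference was −2.59, with 3 of 4 hairpin libraries below both (exact permutation p = 0.267). Of 180 regions listed in both shluci libraries, 19 were in none of the 4 hairpin libraries (10.6%, 6.86 to 15.9%), against 1.77% of reproducible peaks and 1.95% of those restored by both lines. The count was 9 of 88 with the consensus and 10 of 92 without it. Among reproducible peaks the share was lower in stronger bins, while the intervals of the regions' shares overlapped between all bins. In the weakest bin the share was 13.9% of 36 regions against 12.3% of reproducible peaks, in the next 8.45% of 71 against 6.24%, in the third 11.5% of 61 against 3.52%, and between percentiles 60 and 80 it was 8.33% of 12 against 1.07%.

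**Figure D5:**
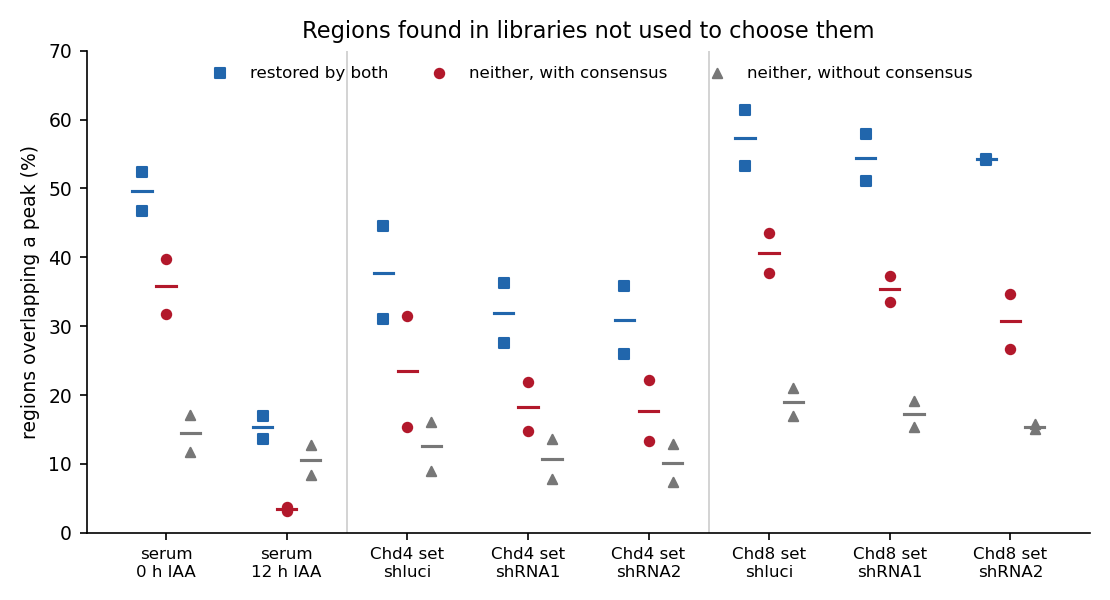
Share of regions that overlap a peak in each of the 16 libraries not used to choose them (y axis, percent), with 1 point per library and a line at the mean of each group. Regions restored by neither line are split by the CTCF consensus (red with, grey without) beside the peaks restored by both lines (blue), and those with the consensus lie at 3.13 and 3.69% in the serum libraries after 12 h of IAA and at 13.4 to 43.5% in the other 14.

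Across the 16 libraries together, 458 regions (30.5%) had no peak in any, against 8.49% of the peaks restored by both lines and 4.91% of retained peaks. Among the 352 with the consensus the number was 47 (13.4%), and among the 1148 without it 411 (35.8%). Only 3 regions (0.2%) had a peak in all 12 libraries of the Chd4 and Chd8 sets, against 6.87% of peaks restored by both lines and 16.8% of retained peaks. All 3 held the consensus.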

How the data were processed

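ATAC-seq peak lists in narrowPeak layout, 1 per library for 24 libraries, were used as the authors deposited them. Per the submitters' processing notes, Trim Galore, Bowtie2, MACS2 and deepTools were used with the mm10 build, and their versions and settings are not given in the sources used here. Each deposited list gives a peak's interval, its summit, a fold (a ratio to local background), a −log10 p, a −log10 q and a display score, and the authors' score was not used further. The labels place 4 libraries in serum, although the growth protocol names serum-free medium for all.

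From these lists the overlaps were computed at a minimum of 1 bp. Reads at a summit were recovered from the fold and the −log10 p under the model of the peak caller, and came out whole within 0.05 for 100% of peaks in the 8 lists used. Library totals are not given in the lists, and Wilson intervals (95%) cover counting error only. Sequence came from the GRCm38 RefSeq assembly, whose chromosome lengths hold every peak, and genes from the GENCODE vM21 basic annotation. Shares of regions were compared between libraries by two-sided exact permutation tests (scipy 1.17.1, numpy 2.4.6, pandas 2.3.3, Python 3.11.15), with Benjamini-Hochberg adjustment over 9 tests. No design here can reach 0.05. The p-values measure only the spread between these libraries. The scripts were tested on simulated data.

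The regions, the gene lists and the tests were chosen with earlier results of these data known. Named regions were taken by rank of the lower of their 2 control percentiles: the 10 highest with the consensus, 5 without, 8 at promoters of protein-coding genes, 6 with the consensus that had both untreated and no treated serum peak, and those within 50 kb of listed genes. Regions on chromosome 18 are given without sequence, and 1 of the 10 highest with the consensus is not reported here. Alternatives were the overlap needed, list length, list threshold, the consensus definition, the starting list, each library left out, a replicate block and each hairpin alone.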

Additional observations from a re-analysis of the deposited data

How the results depend on the processing

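Leaving out 1 of the 8 libraries that chose the regions gave between 1698 and 7821 regions, of which 11.9 to 25.7% held the consensus. The 2 largest, 7821 and 6543, came without a control library, and 2570 regions were found without oeCTCFwt_IAA replicate 1, since each such run asks for 1 list fewer. Using only the 5 lists that hold the highest peak of Ctrl replicate 1, an alternative chosen after seeing the data, gave 2938 regions and a consensus share of 20.2%. The share was 5.73% with no mismatch, 48.1% with at most 2, 15.6% with the whole site within 50 bp of the summit, 30.8% with every list cut to −log10 q of at least 5, and 29.0% with lists cut to the shortest of their set. The number was 1313 with the −log10 q limit and 1422 with the shortened lists. With 50% overlap there were 1877 regions and a share of 25.3%, and with Ctrl replicate 2 as the starting list 1556 and 22.9%.

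The serum difference kept its sign in 10 of 10 alternatives for all regions (−15.9 to −7.57 percentage points) and in 13 of 13 for regions with the consensus (−36.4 to −19.5). For regions without it, the sign turned in 1 of 13, to 2.44 with at most 2 mismatches, and the other 12 gave −9.30 to −1.18. The share lost in serum was 76.0% with lists cut to the shortest, 71.9 to 76.5% with 1 serum library left out, 72.3% with 50% overlap and with the −log10 q limit, 66.9% from Ctrl replicate 2 as the starting list, and 60.5% with the 5 lists. The Chd4 difference turned to 0.0932 when 50% of the peak had to overlap, and ran from −7.53 to 1.73 with 1 library left out. The cause was not tested. The Chd8 difference stayed between −6 and −0.733 in 14 of 14.

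With the replicate number as a block, the differences are the same by construction: −10.6 for all regions in serum with an exact permutation p of 0.5, −2.9 in the Chd4 set with p = 0.111 and −3.77 in the Chd8 set with p = 0.333. The labels give no shared origin for equal numbers, and the peak names inside the treated serum lists carry other replicate numbers than the labels, so the serum numbers may not pair. In the Chd4 set each replicate 1 list was longer than each replicate 2 list, and 0.111 is the smallest p this block allows. Differences under the list limit of 8 or 9 reads at a summit are not detectable here.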
